A study of Mus musculus with 10 samples.

Results

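Of the 32280 Pol II peaks called in WT cells, 665 were at least 4000 bp wide (2.06%), and these wide peaks held 14.1% of all bases under WT Pol II peaks. They were chosen by their width alone, measured as the distance between the ends of the peak in the deposited list. The median width was 5496 bp (quartiles 4526 and 7326 bp), against 580 bp for the other 31615 peaks. The widest, over *Cp*, reached 51793 bp, 71 were at least 10000 bp and 16 at least 20000 bp. Just inside the limit were peaks at *Sqstm1* (4000 bp), *Map3k8* (4001 bp) and *Smarcb1* (4003 bp), and just outside it were those at *Sall1* (3997 bp), *Ncl* (3996 bp) and *Qrich2* (3992 bp).

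The study mapped RNA polymerase II (Pol II), Qki-5 and Srebp2 by ChIP-seq in *Qk*-/- and WT oligodendrocytes obtained in culture from neural stem cells (NSCs) of mouse pups. The stem cells carried *Nestin-CreERT2*, a tamoxifen-inducible recombinase driven by the *Nestin* promoter, and *Qk* alleles with exon 2 between loxP sites. *Qk* was deleted with 4-hydroxytamoxifen, and the cells were then kept for 3 days with triiodothyronine. The labels give the strain as a FvB/C57BL6 hybrid, whereas the study's text names a pure C57BL/6J background for its mice. The Pol II and Qki-5 libraries were made at passage 7 and shared an input within each genotype, the Srebp2 libraries were made at passage 8, and each antibody had 1 library per genotype. There were therefore no replicates, no spread between cultures could be measured and no test between genotypes was made. Every interval given for a share is a 95% Clopper-Pearson interval, which covers counting error only and treats neighboring peaks as independent, which they are not.

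Pol II transcribes protein-coding genes and many long noncoding RNAs. It commonly pauses shortly after the transcription start, which gives narrow peaks at promoters, whereas genes that many polymerases read at once carry Pol II over their whole length. Pol II also travels beyond the site where the transcript is cut and polyadenylated before it leaves the DNA, and Qki-5 is a form of the RNA-binding protein Qki that resides in the nucleus. A peak caller reports 1 wide peak where enrichment above its threshold extends over a long stretch.

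The sequences that follow are the 100 bases before the annotated start of 4 genes whose start lay under a wide peak, read 5′ to 3′ on the strand of the gene from GRCm38 (mm10). *Cp* is shown for the widest peak, *Serpina3i* for a gene covered whole in WT cells without a *Qk*-/- Pol II peak, and *Malat1* and *Mt1* for wide peaks with many Qki-5 bases. Capitals mark GGGCGG, the core of the GC box. The motif of the TATA box (TATAAA), that recognized by the factor NF-Y (CCAAT) and that of the GC box were searched on both strands, and the only match was 1 GC box motif before *Mt1*. They lie at chr3:19956954-19957053 (*Cp*, plus strand), chr12:104263022-104263121 (*Serpina3i*, plus strand), chr19:5802673-5802772 (*Malat1*, minus strand) and chr8:94178982-94179081 (*Mt1*, plus strand).
Cp: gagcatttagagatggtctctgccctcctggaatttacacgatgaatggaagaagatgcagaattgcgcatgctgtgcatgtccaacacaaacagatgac
Serpina3i: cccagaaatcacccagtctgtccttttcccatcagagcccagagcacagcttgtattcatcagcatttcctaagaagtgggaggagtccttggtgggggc
Malat1: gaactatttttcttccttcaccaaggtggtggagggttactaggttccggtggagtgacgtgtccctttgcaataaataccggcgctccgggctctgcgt
Mt1: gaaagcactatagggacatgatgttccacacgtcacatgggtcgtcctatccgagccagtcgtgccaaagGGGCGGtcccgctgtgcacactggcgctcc

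The cell type was checked with marker genes. Over all 21951 protein-coding genes, 56.2% had a WT Pol II peak inside the gene. Of 18 oligodendrocyte markers, 8 had one, a share near this background, and *Mag*, *Mog*, *Mobp* and *Myrf* did not. All 15 markers of neural stem cells and astrocytes had one, as did 4 of 5 precursor, 2 of 7 neuron and 2 of 5 microglia markers. Of the markers with a WT Pol II peak, 7 of 15 for stem cells and astrocytes had a wide peak. These were *Nes*, *Sox2*, *Sox9*, *Vim*, *Gfap*, *Slc1a3* and *Apoe*. The share was 2 of 8 for oligodendrocyte markers, the lineage transcription factors *Olig1* and *Olig2*, and 1 of 4 for precursor markers, *Sox6*. No neuron or microglia marker had a wide peak. Over all protein-coding genes with a WT Pol II peak, 6.15% had one. *Mbp*, a major myelin protein gene, had a WT Pol II peak over 0.477% of its length, no wide peak and no *Qk*-/- Pol II peak. The part of other cell types in the wide peaks was not tested.

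The wide peaks were strong as well as wide, but not uniformly so. Their fold enrichment, the height of the read pileup at its summit over the local background, had a median of 21.1 (quartiles 12.2 and 37.4), against 18.1 (quartiles 10.5 and 26.2) for WT peaks from 2000 bp to under 4000 bp and 5.11 for all narrower peaks. They filled 6 of the 10 highest ranks by fold, 52 of the first 100 and 200 of the first 1000. The highest was *Atp1b2*, which encodes a subunit of the sodium-potassium pump, at 122-fold (rank 3), followed by *Junb* at 112, the *Spidr* peak that covered *Cebpd* at 108, *Ckb* at 103, and *Sox9* and *Zfp36l1* at 102 each. At the other end, 6 wide peaks had a fold under 5, with *Hif1a* lowest at 3.45 (rank 29407), and *Tcf4* at 4.0. Across the 665 peaks, width and fold had a Spearman rho of 0.24. Both values come from 1 library and 1 peak caller, so this correlation is a description.

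The widest peaks lay over genes of diverse function. *Cp* encodes ceruloplasmin, a copper-carrying ferroxidase. Its peak covered 99.2% of the gene at 24.0-fold (chr3:19956911-20008703). The next, 35940 bp at 71.1-fold, was assigned by protein-coding bases to *Frmd8*, of which it covered 9.10%, but it contained the whole of *Neat1*, the nuclear RNA that scaffolds paraspeckles. A peak of 29185 bp lay over 4.69% of *Pde4b*, a cyclic AMP phosphodiesterase, and ran past its 3′ end by 4814 bp. *Gpam*, which starts triglyceride synthesis, had a peak of 28559 bp over 47.6% of the gene, and *Lrig1*, a receptor that restrains growth factor signaling, had 27913 bp over 29.2%. *Steap4*, a metalloreductase, lay whole under 26758 bp at 58.7-fold. *Scd2*, a fatty acid desaturase, lay whole under 20881 bp at 32.6-fold. The peaks of *Gm3448* (32657 bp) and *9030025P20Rik* (23693 bp) belonged to 6 wide peaks between 14960581 and 15079600 on chromosome 17, where genes occur in near-identical copies, so their assignment is uncertain.

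**Figure D1:**
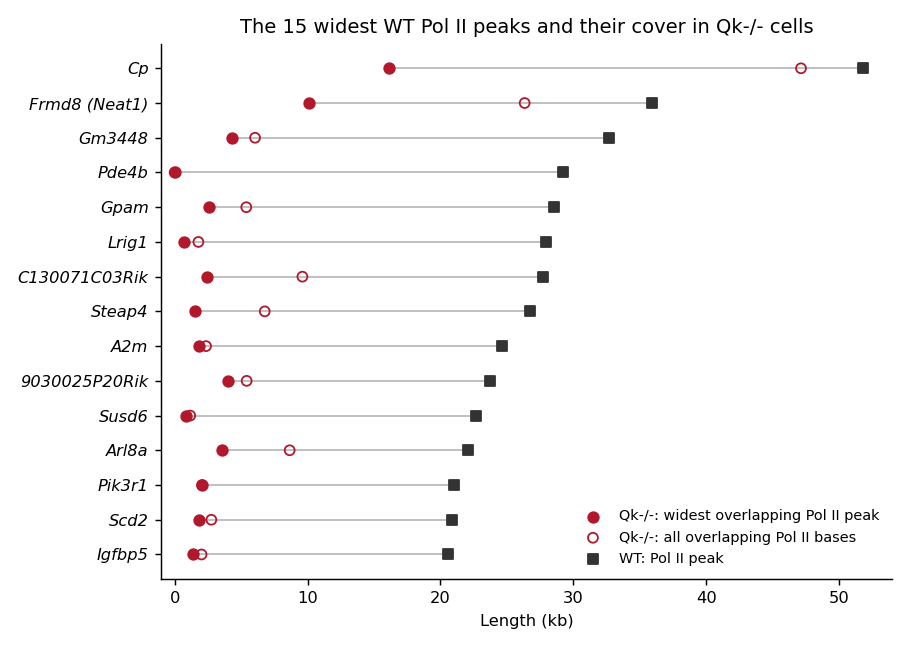
Length in kb of the 15 widest WT Pol II peaks (black squares), of the widest *Qk*-/- Pol II peak that overlapped each (filled red circles) and of all *Qk*-/- Pol II bases under it (open red circles), 1 library per genotype. For *Cp* these lengths were 16137, 47121 and 51793 bp for the widest *Qk*-/- peak, all *Qk*-/- bases and the WT peak, whereas *Pde4b* had no *Qk*-/- Pol II peak.

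Each wide peak was assigned a principal gene, the protein-coding gene of GENCODE M21 with the most bases under it, or the gene of any type where there was none. A principal gene was found for 636 wide peaks, and it was protein-coding for 599. These were 539 different genes, of which 68 had more than 1 wide peak. The peak covered a median of 22.2% of the principal gene (quartiles 7.29% and 69.2%), against 5.90% for WT peaks from 2000 bp to under 4000 bp and 1.68% for all narrower peaks. A wider peak covers more of a gene, so the width rule itself sets this order. The median moved with the width limit, to 14.4% at 3000 bp and 35.9% at 5000 bp. In 131 of the 636 (20.6%, 17.5 to 24.0%) the whole gene lay under the peak, and in 193 at least 50% did. Wide peaks were found on shorter genes: the 759 protein-coding genes with a wide peak inside them had a median length of 12845 bp, against 25757 bp for the other 11578 with a WT Pol II peak. The 121 protein-coding principal genes that lay whole under a wide peak had a median length of 3384 bp. Genes that lay whole under a peak assigned to another gene, such as *Cebpd*, were not among them. A short gene is more easily covered whole by a peak of a given width.

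By place on the principal gene, 131 wide peaks covered the whole gene, 228 its 5′ part, 136 its 3′ part, 141 lay inside it and 29 touched no gene. The whole-gene peaks were the widest, with a median of 7563 bp, and the strongest, at a median of 40.7-fold. Those on the 5′ part had medians of 4902 bp and 26.2-fold, those on the 3′ part 5960 bp and 13.5-fold, and those inside a gene 4998 bp and 12-fold. The wide peaks overlapped an annotated transcript start in 485 cases (72.9%, 69.4 to 76.3%), and the summit of 458 lay within 2000 bp of one (68.9%). Both shares were higher in WT peaks from 2000 bp to under 4000 bp, at 76.1% and 77.7%, and 47.3% of the summits of all narrower peaks lay near a start.

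Many wide peaks continued beyond the end of the gene. They reached the 3′ end of the principal gene in 267 cases (40.2%, 36.4 to 44.0%), and extended past it by a median of 3062 bp (quartiles 2194 and 4093 bp), by at least 2000 bp in 213 of them and by at least 5000 bp in 37. Narrower peaks cannot extend as far, so no comparison was drawn from the medians of 1332 bp in WT peaks from 2000 bp to under 4000 bp and 432 bp in all 816 narrower peaks that reached a 3′ end. *Atp1b2* ran on for 8341 bp, *Sox2* for 8801 bp and *Scd2* for 6775 bp past their 3′ ends. Upstream, the 359 wide peaks that included the 5′ end of the principal gene extended before it by a median of 1390 bp. The longest such stretch, 11652 bp before *Plekha2*, held the noncoding genes *5830408C22Rik* and *Gm45745*.

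Of the wide peaks without a gene, 22 of 29 lay nearer to a 3′ end than to a 5′ end of the nearest protein-coding gene, and 20 were within 10000 bp of that 3′ end. The widest began 523 bp past the 3′ end of *Qk* itself (chr17:10190321-10202077), with 11757 bp and 17.5-fold enrichment. A second wide peak, of 8298 bp and 14.9-fold, covered the 5′ end of *Qk* and 5.04% of its length. In *Qk*-/- cells, *Qk*-/- Pol II peaks lay over 28.2% of the first and 61.8% of the second, and each overlapped 1 WT Qki-5 peak. Over the whole length of the *Qk* gene, *Qk*-/- Pol II peaks covered 5.11%, against 60.9% under all WT Pol II peaks. The peak lists do not show whether exon 2 was lost.

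Some genes carried a chain of wide peaks with short breaks. *Pik3r1*, the regulatory subunit of a phosphoinositide kinase, had 7 that together covered 82.4% of its 87655 bp, and *Susd6* had 7 over 72.8% of its 90326 bp. *Plpp3* and *Slc1a3*, a glutamate transporter of astrocytes, had 5 each. *A2m*, a secreted protease inhibitor, had 4 over 84.6% of its length and *C3*, the central complement component, had 4 over 74.2%. Wide peaks on 1 gene share that gene and are not separate instances of it, and 165 of the 665 belonged to such genes.

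A wide peak often included several annotated genes. In 333 it overlapped at least 2 genes of any type and in 201 at least 2 protein-coding genes. The highest numbers, 26, 24 and 23 genes for the peaks assigned to *Pcdhgc5*, *Pcdhga12* and *Diaph1*, came from the protocadherin cluster on chromosome 18, whose overlapping entries share a 3′ part. A peak of 4383 bp at the 5′ end of *Slc3a2* overlapped 10 genes, among them *Snhg1*, the host of small nucleolar RNAs, and one of 10041 bp over *Slc39a7*, a zinc transporter gene, overlapped 8. Without strand in the data, Pol II on such neighbors cannot be told apart.

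Base composition differed between the places. The wide peaks had a median GC content of 50.2% and a median CpG ratio (observed over that given by the C and G content) of 0.37. The ratio was 0.54 for wide peaks on the 5′ part, 0.40 for whole genes, 0.28 inside genes, 0.24 on the 3′ part and 0.18 without a gene. For WT peaks from 2000 bp to under 4000 bp the ratio was 0.58.

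The genes under wide peaks were then described with lists of genes grouped by function. The lists were chosen with earlier results of these data known, so a share above the background is a description only. Some genes, such as *Vim* and *Sox2*, are in more than 1 list. Over all 12337 protein-coding genes with a WT Pol II peak, 6.15% had a wide peak inside them. Cytoskeleton genes stood well above that share, with 12 of 16. *Actb* (8958 bp, 83.3-fold), *Actg1*, *Tuba1a*, *Tubb2a*, *Tubb4b*, *Tubb5*, *Tmsb4x* and the intermediate filament gene *Vim* (14954 bp, 92.9-fold) lay whole under a wide peak, and *Gfap* lay under one for 85.7% of its length. Immediate early genes, which respond within minutes to growth factors and stress, had 16 of 31. *Fos*, *Jun*, *Junb*, *Jund*, *Ier3*, *Ier5*, *Btg2*, *Zfp36l1*, *Zfp36l2*, *Gadd45a*, *Gadd45b* and *Gadd45g* were covered whole, and *Klf6*, *Myc* and *Dusp6* for 77.7%, 61.5% and 59.0%.

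The transcription list, which also holds the cell survival gene *Mcl1* and genes of cyclins, had 9 of 15, with *Sox2*, *Sox4*, *Sox9*, *Cebpb*, *Cebpd*, *Mcl1* and *Brd2* covered whole. *Polr2a*, which encodes the largest Pol II subunit, had no wide peak. Translation factors had 6 of 12, of which *Eif1* was covered whole and *Eif4g2* for 70.8%. Chaperone and stress genes had 7 of 15, with *Hspa5*, *Hsp90ab1*, *Atf4*, *Ddit4* and *Txnip* covered whole and *Ddit3* for 55.6%. Metabolic genes had 5 of 12, among them *Gapdh*, *Tpi1* and *Ckb*, covered whole, *Aldoa* (92.6%) and *Eno1* (69.9% under 2 peaks). RNA-binding protein genes had 5 of 14, with *Ddx5* (97.4%), *Hnrnpu* (61.5%) and *Srsf3* (55.0%) each under 2 wide peaks. Of the nuclear long noncoding RNAs, which are outside the protein-coding background, 4 of 5 had one, with *Malat1*, *Neat1* and *Snhg1* covered whole.

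Shares nearer to the background were seen for the other lists. Histone genes had 11 of 65, and 1 peak of 7155 bp held 5 of them. Histone genes are near-identical copies and their peaks are uncertain. Ribosomal protein genes had 10 of 81, of which *Rpl10a*, *Rpl23a*, *Rpl27a*, *Rpl36*, *Rpl7a*, *Rps15*, *Rps2* and *Rps27a* were covered whole, although these genes are short. The cholesterol list, which also holds the fatty acid desaturase gene *Scd2*, had 2 of 13. They were *Scd2*, covered whole, and *Fdft1*, the squalene synthase gene, covered for 8.03%, so *Fdft1* was the 1 sterol gene among them. The Id and Hes list had 2 of 8, *Id3* and *Hey1*. Matrix and secreted protein genes had 1 of 15, *Cst3*. The 11 Rnu genes and the 1 Hox gene with a WT Pol II peak had none.

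**Figure D2:**
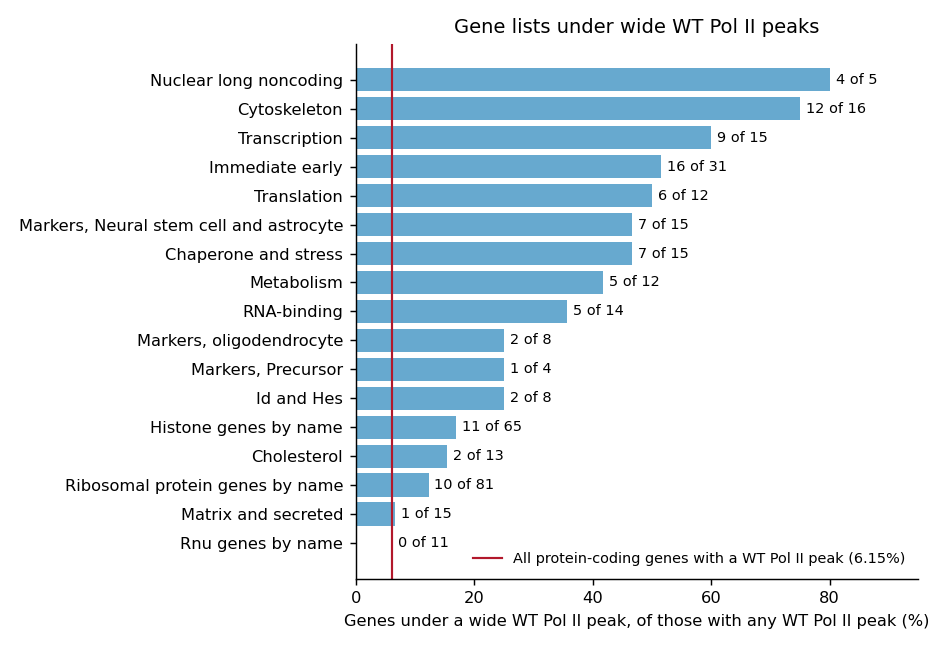
Share of the genes with any WT Pol II peak that had a wide WT Pol II peak inside them (x axis, percent), for each gene list with at least 4 such genes, with the counts beside the bars. The red line marks all protein-coding genes with a WT Pol II peak (6.15%), and cytoskeleton genes (12 of 16) lay far to the right of it and matrix genes (1 of 15) close to it. The lists were chosen with earlier results of these data known.

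The *Qk*-/- Pol II list held 12835 peaks with a median width of 606 bp over 9769928 bp in total, and the WT list 31919566 bp. The lists hold no read totals, so fewer or narrower peaks in *Qk*-/- cells and a less sensitive library cannot be told apart. Where folds of both lists are printed for a gene, no conclusion was drawn from their difference. Of the 665 wide peaks, 585 overlapped a *Qk*-/- Pol II peak (88.0%, 85.3 to 90.3%), against 33.8% of all WT Pol II peaks. Wider peaks have more bases to overlap, so the area around the WT summit was also examined. A *Qk*-/- peak lay within 250 bp of the summit in 557 wide peaks (83.8%), against 81.8% of WT peaks from 2000 bp to under 4000 bp and 32.3% of all WT peaks under 4000 bp.

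The share of summits with a *Qk*-/- peak differed with the WT fold. Among wide peaks under 10-fold, 45.0% of summits (35.4 to 54.8%, n = 109) had a *Qk*-/- peak nearby, against 10.6% of narrower peaks in that range. Wide and narrower peaks were not matched for fold within a class, and all narrower peaks had a median fold of 5.11 (lower quartile 3.93). Between 10 and 20-fold the order turned, with 78.5% of wide peaks (72.3 to 83.8%, n = 209) and 91.0% of narrower ones. Above 20-fold nearly every summit had one in both classes, with 99.0% and 99.3% of wide peaks and 99.5% and 100% of narrower peaks in the ranges from 20 to 40-fold and above. The WT fold and the share of a wide peak covered in *Qk*-/- cells had a rho of 0.45 (n = 665), and the width and that share −0.03. The points of both correlations share the same 2 libraries.

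**Figure D3:**
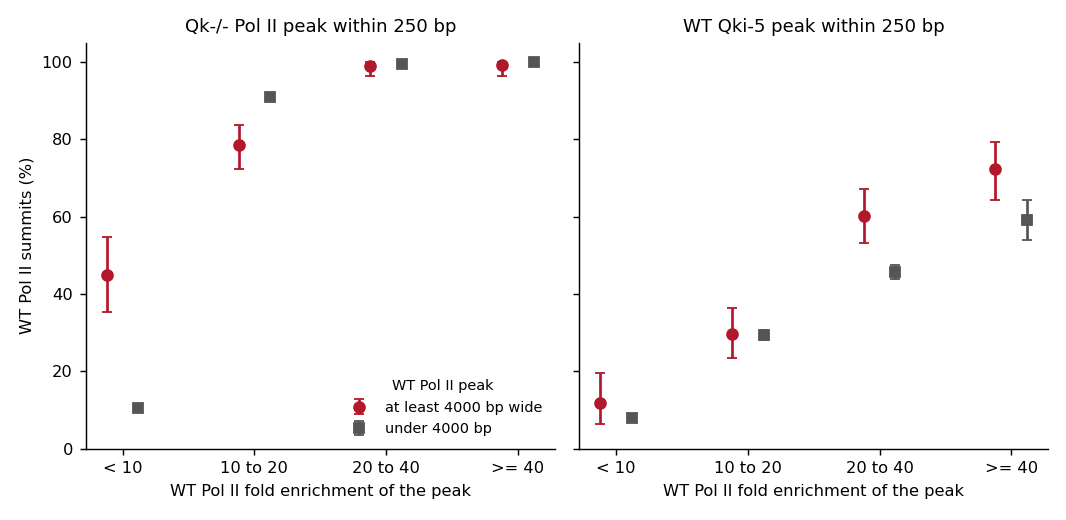
Share of WT Pol II summits (y axis, percent) with a *Qk*-/- Pol II peak (left) or a WT Qki-5 peak (right) within 250 bp, by WT Pol II fold class, for wide peaks (red circles) and peaks under 4000 bp (gray squares), with 95% Clopper-Pearson intervals. Under 10-fold the *Qk*-/- shares were 45.0% and 10.6%, and at 40-fold and above the Qki-5 shares were 72.3% and 59.2%. Folds were not matched within a class.

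The wide peaks were selected on their WT width, so a narrower peak in the other list follows in part from the selection, and the widths in *Qk*-/- cells are given as a description. The widest *Qk*-/- peak over a wide peak had a median of 1588 bp among the 585 that had one. Over all 665 it came to a median of 22.7% of the WT width (quartiles 11.4% and 39.3%), against 38.1% for WT peaks from 2000 bp to under 4000 bp. It was narrower than the WT peak in 584 of the 585. The exception was *Arvcf*, with a *Qk*-/- peak of 5143 bp and a WT peak of 4749 bp. All *Qk*-/- Pol II peaks together covered a median of 34.8% of a wide peak, and 35.6% of the bases of the wide peaks as a whole, against 40% for WT peaks from 2000 bp to under 4000 bp and 28.8% for all narrower peaks. The median cover of WT peaks from 2000 bp to under 4000 bp was 42.8%, above that of the wide peaks. In 375 of the 665 (56.4%) the WT peak overlapped at least 2 separate *Qk*-/- peaks, against 19.1% of WT peaks from 2000 bp to under 4000 bp, which are shorter. At least 50% was covered in 192 wide peaks, at least 25% in 427 and at least 90% in 7.

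**Figure D4:**
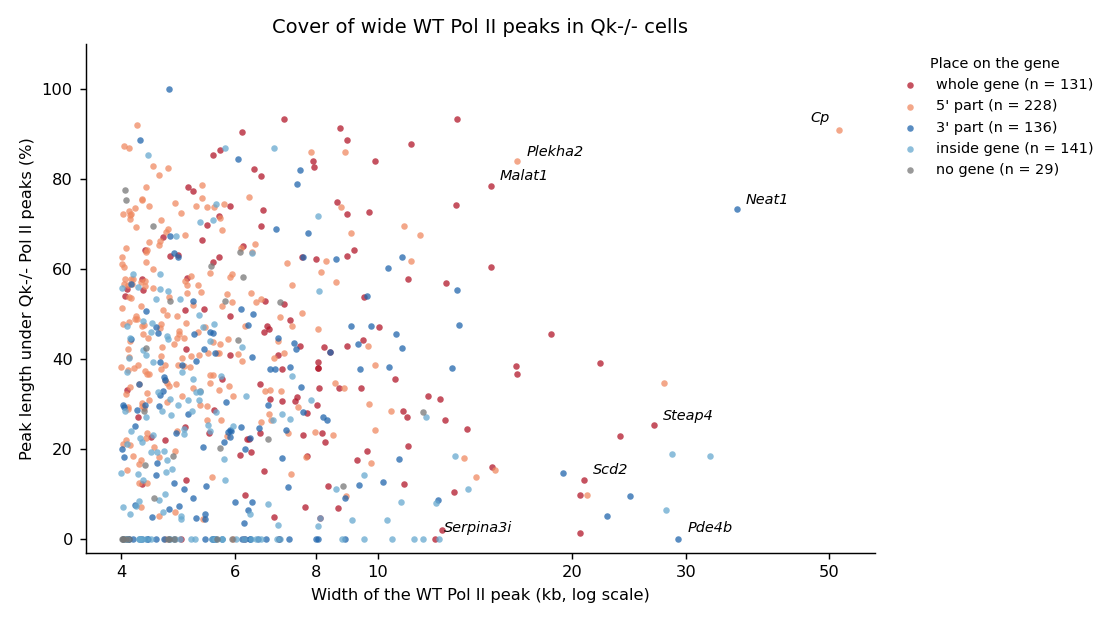
Share of each wide WT Pol II peak under *Qk*-/- Pol II peaks (y axis, percent) against its WT width (x axis, kb, log scale), 1 point per peak (n = 665), colored by its place on the principal gene. *Cp* stands at 91.0% cover and 51793 bp, whereas 80 peaks lie at 0, among them *Pde4b* with 29185 bp.

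A *Qk*-/- Pol II peak that was itself at least 4000 bp wide overlapped 51 of the 665 (7.67%, 5.76 to 9.96%). The share was 0.177% over all WT Pol II peaks, the wide ones included, and 0.0346% from 2000 bp to under 4000 bp. The wide peaks were chosen by width, so this order follows in part from the selection. The 7.67% became 13.5% once *Qk*-/- peaks were joined across gaps of up to 500 bp, 4.53% with WT peaks joined, 4.08% with a width limit of 3000 bp and 12.4% with 5000 bp. The *Qk*-/- list held 56 such peaks, and 54 of them overlapped a wide WT peak. *Cp* had the widest, of 16137 and 13337 bp, among 13 *Qk*-/- peaks that covered 91.0% of the WT peak. *Malat1* had 1 peak of 11728 bp, against 14947 bp in WT cells, and had folds of 60.9 in *Qk*-/- cells and 85.0 in WT cells, each within its own list. *Plekha2* had a peak of 11053 bp, against 16429 bp in WT cells, and *Neat1* one of 10072 bp, against 35940 bp. All *Qk*-/- Pol II peaks together covered 87.7% of the *Neat1* gene, against 100% under WT Pol II peaks. *Sox2*, a factor of neural stem cells, had 8920 bp, against 13221 bp in WT cells. *Zfp36l2*, an RNA-decay factor, had 7749 bp, against 8728 bp, and *Nfkbia*, the inhibitor of NF-κB, had 7045 bp, against 9695 bp. *Cebpd* lay under 6893 bp in *Qk*-/- cells, against 10905 bp in WT cells.

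Other wide peaks were covered for a small part in *Qk*-/- cells. *Hspa5*, the endoplasmic reticulum chaperone, had 1 *Qk*-/- peak of 1355 bp, against 10977 bp in WT cells, with folds of 54.1 in the *Qk*-/- list and 95.5 in the WT list. *Atp1b2* was covered for 16.0% of 15034 bp, *Scd2* for 13.2% of 20881 bp, *Gfap* for 14.8% of 19324 bp and *Fos* for 18.5% of 7763 bp. *S1pr3*, a sphingosine 1-phosphate receptor gene, had 304 bp, against 20542 bp in WT cells, and *Serpina3n* had 264 bp, against 12540 bp. *Steap4* had 12 *Qk*-/- peaks, the widest of 1534 bp, over 25.3% of the WT peak. *Pik3r1* and *Susd6*, whose chains of wide peaks covered most of the gene, had *Qk*-/- Pol II peaks over 1.5% and 0.841% of their length, against 96.0% and 93.6% under all WT peaks. *A2m* had 3.69%, against 95.2%. *C3* differed from these, with 21 *Qk*-/- peaks over 53.9% of the gene, against 7 WT peaks over 94.4%.

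No *Qk*-/- Pol II peak overlapped 80 of the wide peaks. By place these were 4 of 131 whole-gene peaks, 4 of 228 on a 5′ part, 26 of 136 on a 3′ part, 36 of 141 inside a gene and 10 of 29 without a gene. The widest was the *Pde4b* peak of 29185 bp (19.2-fold), and the next were 2 of *Susd6* (12411 and 11349 bp), *Serpina3i* (12242 bp, 20.1-fold), 3 of *Pik3r1*, the 3′ part of *Eno1* (8871 bp, 17.9-fold), 1 of *A2m* (8802 bp) and *Smarcd3* (8056 bp). Genes of the *Serpina3* family are similar in sequence, so reads may be split between copies. The median CpG ratio of the 80 was 0.18, against 0.51 for the wide peaks covered by at least 50% in *Qk*-/- cells. The median *Qk*-/- cover was 45.2% for wide peaks on 5′ parts, 39.4% for whole genes, 25.9% on 3′ parts, 20.2% without a gene and 19.3% inside genes.

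The same order was seen along the genes. In the 121 protein-coding principal genes that lay whole under a wide WT peak, the start was also under a *Qk*-/- peak in 110 (90.9%). The share was 63.6% at 25% of the gene length, 41.3% in the middle, 33.9% at 75% and 35.5% at the end. It was 45.6% (52 of the 114 that WT peaks covered) 1000 bp past the end, and 22.9% at 3000 bp past it. In the other genes, of the points that lay under a narrower WT peak, 74.9% at the start, 20.5% in the middle and 15.1% at the end were under a *Qk*-/- peak. *Qk*-/- Pol II peaks were most frequent at starts in both sets of genes.

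**Figure D5:**
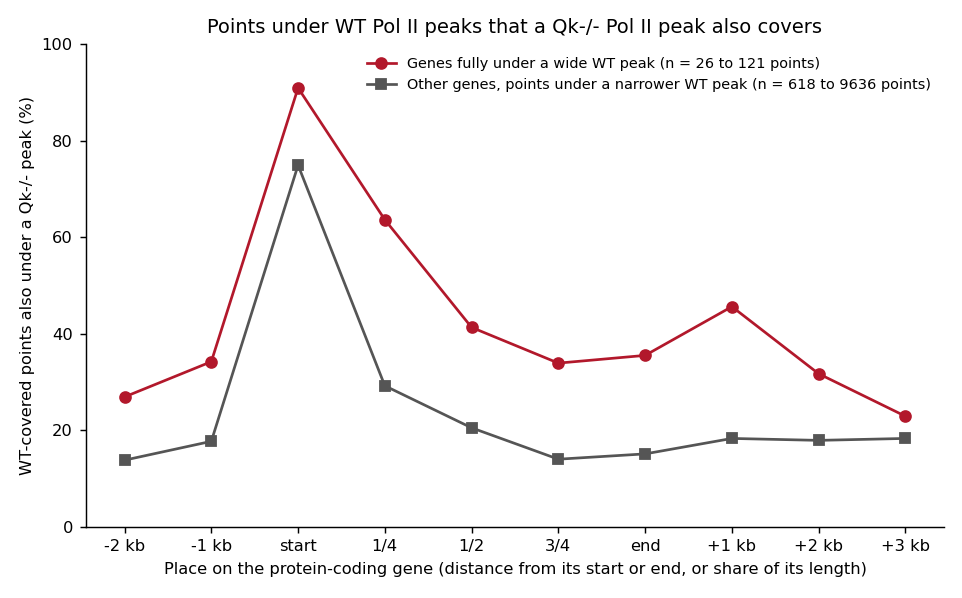
Share of points under a WT Pol II peak that also lay under a *Qk*-/- Pol II peak (y axis, percent), by place on the protein-coding gene (x axis, distance from its start or end, or share of its length), for principal genes that lay whole under a wide WT peak (red circles) and other genes with the point under a narrower WT peak (gray squares). The red line is highest at the start (90.9%), lies at 33.9% at 75% of the length and at 45.6% 1000 bp past the end.

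The lists of genes differed in how much of a gene lay under *Qk*-/- Pol II peaks. Over the 759 protein-coding genes with a wide peak, the median *Qk*-/- cover of the gene was 8.44%, against 48.8% in WT cells. For the 121 genes that lay whole under a wide peak it was 40.4%, against 100% in WT cells. The median WT cover was also 100% for the lists below, except translation factors (92.5%), RNA-binding protein genes (84.7%) and the cholesterol list (60.3%). The median *Qk*-/- cover was 100% for the 11 histone genes, 72.7% for *Id3* and *Hey1*, 62.4% for the 4 nuclear long noncoding RNAs and 47.6% for the 10 ribosomal protein genes, most of them short. For the 7 stem cell and astrocyte markers with a wide peak it was 63.5%, with *Sox2* at 100%, *Sox9* at 96.3% and *Apoe*, a lipid carrier, at 84.1%, but *Gfap* at 5.49%, *Nes* at 6.56% and *Slc1a3* at 2.37%. For the 16 immediate early genes it was 61.3%, with *Jund*, *Ier3*, *Zfp36l2* and *Gadd45g* at 100%, and *Fos* lowest among those covered whole in WT cells, at 18.9%. It was 44.9% for the transcription list, 37.9% for *Cst3*, 36.0% for metabolic genes, 31.4% for cytoskeleton genes, 23.5% for chaperone and stress genes, 21.3% for translation factors, 12% for RNA-binding protein genes and 6.12% for the cholesterol list, from *Scd2* at 12.2% and *Fdft1* at 0%. *Olig1* was at 95.6% and *Olig2* at 24.5%. The genes of these lists differ in length and WT fold, and short genes are covered more easily by a promoter peak.

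The Qki-5 and Srebp2 lists used here hold fewer peaks than the study's text describes, so an overlap that was not found may reflect the length of the list. A WT Qki-5 peak overlapped 382 of the 665 wide peaks (57.4%, 53.6 to 61.2%), against 17.2% of all WT Pol II peaks and 47.2% of those from 2000 bp to under 4000 bp. In a window of 250 bp on each side of the Pol II summit, of equal size for every peak, a Qki-5 peak was found in 302 (45.4%), against 16.0% of all WT Pol II peaks and 40.6% of those from 2000 bp to under 4000 bp. With peaks of at least 5-fold in every list the share at wide peaks was 28.2%. By length, Qki-5 was no denser under the wide peaks. They held 1.35 Qki-5 peaks per 10000 bp, against 2.00 in WT peaks from 2000 bp to under 4000 bp and 1.97 in all narrower peaks. Qki-5 covered 7.53% of their bases, against 9.11% and 7.55%. An overlap of 1 bp counts as a whole Qki-5 peak, which raises the number per length in short Pol II peaks. The number of Qki-5 peaks was 0 in 283 wide peaks, 1 in 227, 2 in 114, 3 in 26 and at least 4 in 15.

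Qki-5 at the summit also followed the Pol II fold. It was found at 11.9% of the summits of wide peaks under 10-fold and at 29.7% between 10 and 20-fold, against 7.92% and 29.3% of narrower peaks, differences within the intervals (6.51 to 19.5% and 23.6 to 36.4%). Between 20 and 40-fold it was found at 60.3% of wide peaks (53.1 to 67.2%), against 45.8% of narrower ones (44.0 to 47.6%). At 40-fold and above it was found at 72.3% (64.3 to 79.3%), against 59.2% (53.9 to 64.4%), and these intervals overlap at their ends. Folds were not matched within these classes. Qki-5 and Pol II of WT cells shared 1 input library.

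Qki-5 lay mostly at gene starts. It overlapped 71.0% of whole-gene wide peaks and 71.5% of those on 5′ parts, against 51.8% inside genes, 33.1% on 3′ parts and 27.6% without a gene. Of the 606 Qki-5 peaks over wide Pol II peaks, 75.2% were within 2000 bp of an annotated start, against 69.6% of those over other WT Pol II peaks. Their median fold was 5.33, against 5.31. In the 121 protein-coding principal genes that lay whole under a wide peak, Qki-5 covered the start in 38.0%, the point at 25% of the length in 9.92%, the middle in 12.4% and the end in 3.31%.

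A few genes departed from this and had Qki-5 over a long stretch. *Cp* had 12 Qki-5 peaks that covered 16337 bp, or 31.5% of its Pol II peak. *Malat1*, an abundant nuclear RNA, had 6 over 6717 bp (44.9%). The metallothionein gene *Mt1* had 2 over 3701 bp, 65.0% of a Pol II peak of 5695 bp, with the highest at 22.2-fold. The *Cebpd* peak had 3669 bp, the peak assigned to *Ciz1* that covered *Lcn2* had 3640 bp, and *Brd2*, a chromatin reader, had 3517 bp. *Rdh5*, *Gm24950*, *9030025P20Rik* and *Vmp1*, whose peak held *Mir21a*, had between 3242 and 3330 bp. Of these, *Malat1*, *Mt1* and *Gm24950* also overlapped a *Qk*-/- Qki-5 peak, where the antibody still gave a peak in *Qk*-/- cells.

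In all, 19 of the 665 wide peaks overlapped 1 of the 427 *Qk*-/- Qki-5 peaks (2.86%, 1.73 to 4.43%). The share was 0.452% for all WT Pol II peaks and 1.66% for those from 2000 bp to under 4000 bp. Of the 80 wide peaks without a *Qk*-/- Pol II peak, 17 had a WT Qki-5 peak. Only 3 wide peaks (0.451%) overlapped 1 of the 77 WT Srebp2 peaks. These 3 lay at *Scd2*, at *Atf4*, a stress-response transcription factor, and at *Acsl3*, a fatty acid-activating enzyme. The share was 0.204% for all WT Pol II peaks and 0.554% for those from 2000 bp to under 4000 bp. The interval of the share at wide peaks was 0.0931 to 1.31%.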

How the data were processed

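ChIP-seq peak lists of WT and *Qk*-/- cells were analysed for Pol II and Qki-5, and the WT list for Srebp2. The *Qk*-/- Srebp2 list and the input libraries were not used here. The authors ran MACS2 2.1.2 on mm10 alignments, 1 library at a time with the matching input as control, and accepted a q-value of 0.05. The methods name Bowtie2 as the aligner, and the submitters' processing notes name Bowtie 1.2.2. Fold enrichment, as deposited by the authors, is a ratio of summit pileup to local background, and the deposited −log10 q-values belong to the summit position. Read totals are not in the lists, and the depth behind each value is therefore unknown.

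Genes came from the GENCODE M21 basic annotation. Overlap meant at least 1 bp. Shares carry 95% Clopper-Pearson intervals. No test was made, since each antibody had 1 library per genotype. The tools were Python 3.11.15, pandas 2.3.3, numpy 2.4.6, scipy 1.17.1, pysam 0.24.0, samtools 1.23.1 and matplotlib 3.10.9. On simulated data, 60 of 60 planted overlaps among 200 regions were recovered. The 100-base sequences were read from the GRCm38 genome. RefSeq promoters matched 396 of 539 principal genes, fewer than the 80% needed, so motif shares were void.

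Named genes are the principal genes of the 15 widest wide peaks, the 10 with the highest fold, the 10 widest *Qk*-/- peaks over them, the 10 widest without a *Qk*-/- peak, the 10 with the most Qki-5 bases, the 5 that cover the most genes, those beside the width limit, genes of the lists, and *Qk*, *Polr2a*, *Mbp*, *Malat1*, *Neat1* and *Actb*. Others were named after their values were seen, and a few genes within the rule are not reported here. The members and lists were chosen with earlier results of these data known. The WT lists used held 7539 Qki-5 and 77 Srebp2 peaks as deposited. Alternatives were width limits of 3000 and 5000 bp, stricter peaks, peaks joined across gaps of 500 bp and other overlap rules. Counting the widest peak per gene and cutting the WT list to the size of the *Qk*-/- list were added after the data were seen.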

Additional observations from a re-analysis of the deposited data

How the results depend on the processing

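Of 63 shares and medians under alternative settings, 39 lay inside the interval of the reported value and 24 outside it. Joining WT peaks across gaps of up to 500 bp gave 1126 wide peaks in place of 665, and the share with a *Qk*-/- Pol II peak was then 82.0%, the median *Qk*-/- cover 24.3%, the median widest *Qk*-/- peak 16.3% of the WT width and the share with a *Qk*-/- peak of at least 4000 bp 4.53%. Joining *Qk*-/- peaks instead, of which 97 then reached 4000 bp, gave 30.8% and 13.5% for the last pair of values. With a width limit of 3000 bp, the median gene cover was 14.4%, the share reaching a 3′ end 27.1%, the share with Qki-5 53.6%, the widest *Qk*-/- peak 27.1% of the WT width and the share with a wide *Qk*-/- peak 4.08%. With 5000 bp, the median gene cover was 35.9%, the share reaching a 3′ end 52.5%, the share with Qki-5 62.4% and that with a wide *Qk*-/- peak 12.4%. Requiring at least 5-fold in every list gave 39.6% with a Qki-5 peak, 28.2% with one within 250 bp of the summit, 82.4% with a *Qk*-/- Pol II peak and a median *Qk*-/- cover of 30.6%. The share with a *Qk*-/- Pol II peak was 80.3% with the WT summit inside that peak and 28.9% with at least 50% of the WT peak covered. The widest peak per gene, an alternative chosen after seeing the data, gave 26.7% median gene cover, 45.8% reaching a 3′ end and 91.7% with a *Qk*-/- peak. A WT list cut by fold to the size of the *Qk*-/- list, also chosen after seeing the data, held 647 wide peaks with a median *Qk*-/- cover of 36.0%. The causes of these differences were not tested. No paired analysis was possible because each antibody had 1 library per genotype. With neither replicates nor read totals, the narrower *Qk*-/- peaks and a library of lower sensitivity cannot be told apart, and wide peaks can be joined or split by the peak caller.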

Other observations

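These observations were chosen after the values were seen, and no cause was tested. They rest on single genes, with no list and no background share. *Nfkbia*, the inhibitor of NF-κB, was covered for 72.7% in *Qk*-/- cells, whereas the *Nfkbiz* peak of 10862 bp, at 52.2-fold in WT cells, was covered for 8.36%. A wide peak inside *Bcl3* was covered for 5.62%, and that of *Socs3*, an inhibitor of cytokine signaling, for 24.2%. *Cp* was covered for 91.0%, and the peak that held *Lcn2*, a lipocalin, for 47.7%, against 2.11% for *Serpina3n* and 0% for *Serpina3i*. The 4 wide peaks of *A2m* were covered for 0 to 14.2%, and those of *C3* for 28.2 to 71.0%.

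The metallothionein genes *Mt1* and *Mt2*, neighbors on chromosome 8, each lay whole under a wide peak. Those peaks were covered for 86.5% and 69.8% in *Qk*-/- cells, and Qki-5 peaks covered 65.0% and 58.1% of them.

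Only 2 *Qk*-/- Pol II peaks of at least 4000 bp overlapped no wide WT peak. One had 6908 bp without an annotated gene (chr1:169934679-169941586), over 3 WT peaks of which the widest had 3330 bp. The other had 4569 bp at *Prelp*, a matrix proteoglycan gene, over 3 WT peaks of which the widest had 573 bp.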
